A study of Mus musculus with 10 samples.

Results

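The levels of 10 genes of the Z-disc and of the stretch response of muscle were followed in fasted mouse gastrocnemius, a mostly fast-fibred calf muscle: Actn2, Ldb3, Tcap, Myot, Myoz1, Myoz2, Des, Csrp3, Ankrd1 and Ankrd2. They were listed by name, and every probe set of the array that the annotation assigns to 1 of them alone was taken. This gave 15 probe sets for the 10 genes, of 45037 probe sets and 18193 genes on the array. The genes Myoz1, Ankrd1 and Des had 2 probe sets each, Ldb3 had 3, and the other 6 genes had 1.

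The study hybridised RNA of 5 mice deficient in Skn-1 and of 5 wild-type mice to Affymetrix Mouse Genome 430 2.0 arrays, 1 array per mouse. Pou2f3, the gene also called Skn-1, encodes a POU-domain factor known for its role in taste and tuft cells. The labels give the mutants as Skn-1/Pou2f3-deficient, without the part of the gene that was removed. All mice of both genotypes were males of 12 to 16 weeks, were kept on chow, shared a strain history of 129 x C57BL/6J with over 10 generations of backcrossing to C57BL/6J, and were fasted for 18 h before dissection. The comparison asks how the muscle's transcripts differ when Skn-1 is missing, and each difference is the knockout mean minus the wild-type mean.

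The Z-disc is the plate at which thin filaments of neighbouring sarcomeres are anchored by alpha-actinin, and around which titin, telethonin, the myozenins, ZASP and myotilin are assembled. Desmin filaments tie the Z-discs of neighbouring myofibrils to each other and to the cell membrane. Several Z-disc and titin-bound proteins, among them the muscle LIM protein and the muscle ankyrin repeat proteins, also move to the nucleus, and their transcripts are known to respond to stretch, load and denervation.

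The deposited values are read as log2, and the sources used here state neither their log base nor their processing. Array medians lay between 6.23 and 6.24. Over the 10 arrays 86.2% of probe sets had an SD at or under 0.01, a spread so small that their differences have no size that can be read, while 13.8% varied more. The 6 skeletal muscle markers fixed for the tissue check (Ckm, Acta1, Myh4, Mylpf, Ttn and Tnnt3) averaged 13.59 to 13.64 in knockout and 13.56 to 13.63 in wild-type arrays, so the defining genes of the labelled tissue were present. The single Pou2f3 probe set stood at 6.47 in both genotypes (exact two-sided permutation p = 0.571, n = 5 each) and hardly varied, so it does not check the labels. Markers of epidermis and hair were high in knockout 1 and 4 (list means 7.76 and 8.19, against 6.16 to 6.22 in the other knockouts and 6.14 to 6.94 in wild types). Markers of lymphocytes were high in knockout 5 and wild type 3 (7.34 and 7.40, against 5.97 to 6.12 in the other 8 arrays). Of the 10 genes none lies on chromosome 9, which carries Pou2f3. Myoz1 and Ldb3 both lie on chromosome 14, and Ankrd1 and Ankrd2 both on chromosome 19. A part of shared position in their values was not tested.

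Of the 15 probe sets 14 varied by more than 0.01. The member nearest to this limit from above was Myot, with an SD of 0.0156 over the 10 arrays, and the single one under it was the dimmer Des probe set, with an SD of 0.00011. The values of a probe set can be set against those of the same probe set on other arrays, but not against those of another gene, because probes differ in brightness.

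**Figure D1:**
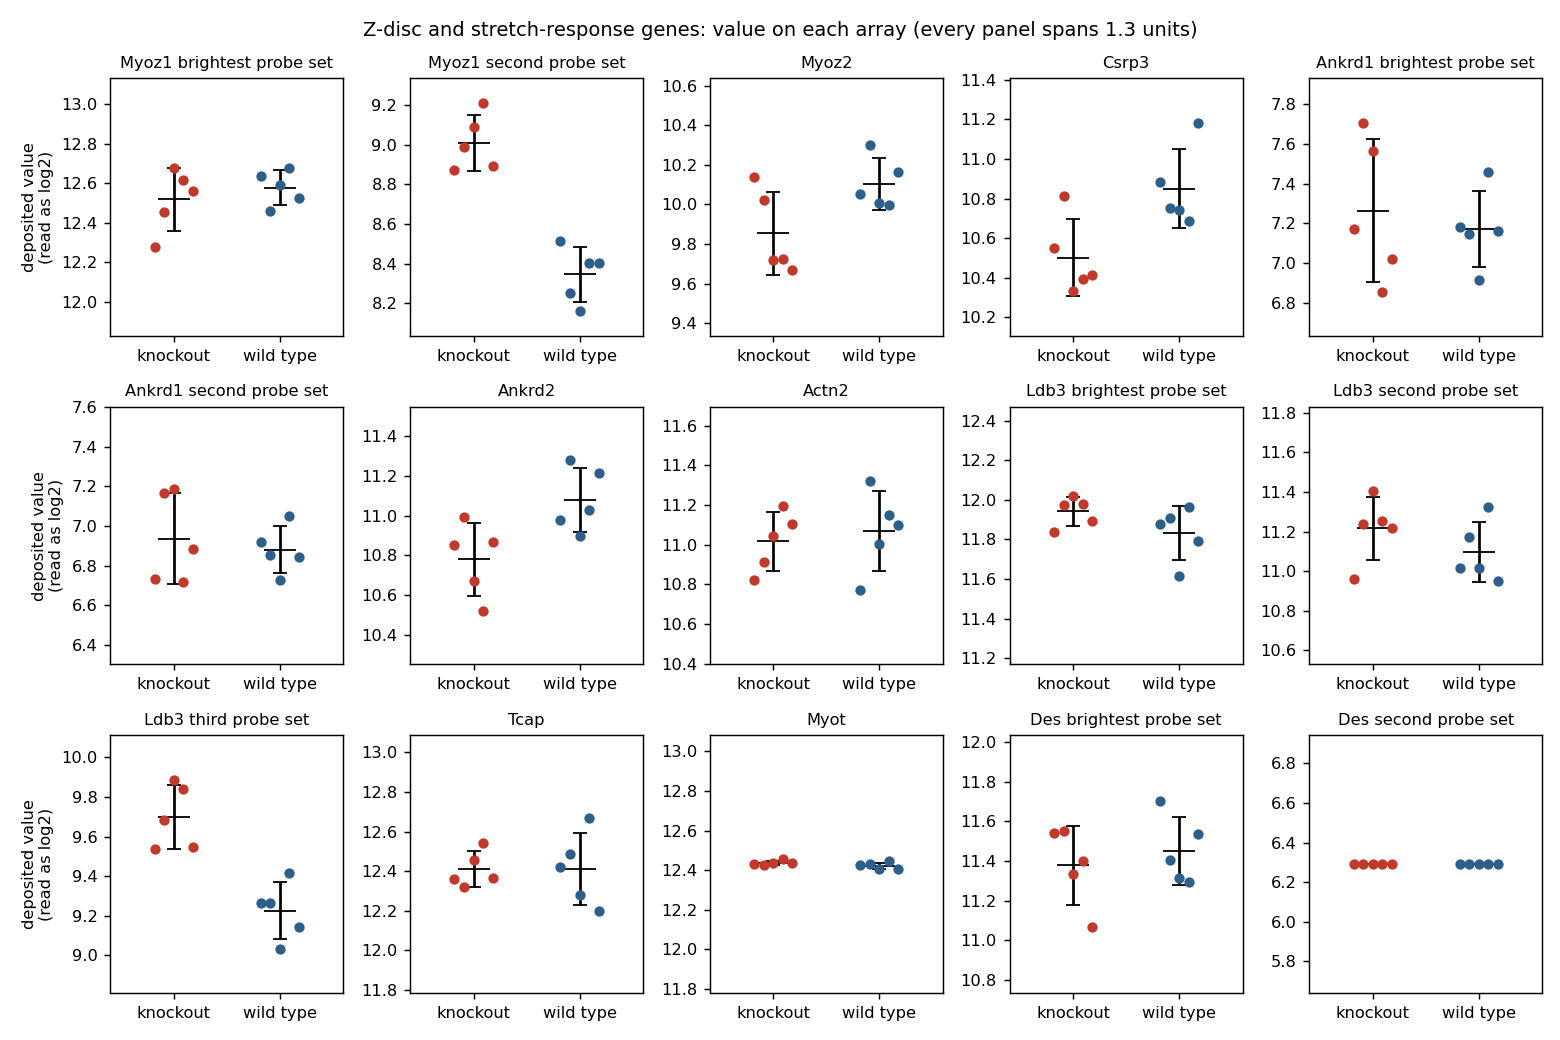
Deposited value of each of the 15 probe sets (vertical axis, read as log2) on each array, knockout left and wild type right; every panel spans 1.3 units, the horizontal bar is the mean and the vertical bar the SD of 5 arrays. The groups are separate in the second Myoz1 probe set (8.87 to 9.21 in knockouts, 8.16 to 8.51 in wild types) and in the third Ldb3 probe set (9.54 to 9.89 in knockouts, 9.03 to 9.42 in wild types).

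The clearest difference was in 1 of the 2 probe sets of Myoz1, which was higher in knockout muscle, while the brighter probe set of the same gene did not differ beyond the spread. In the same way, 1 of the 3 probe sets of Ldb3 stood apart from its partners. Csrp3, Ankrd2 and Myoz2 averaged lower in knockouts without passing the test, and Actn2, Tcap, Des, Ankrd1 and Myot had differences within the spread between arrays. Over single probe sets 1 of the 15 passed an adjusted limma p of 0.05, against 0.191% of all 45037 probe sets and 0.966% of the 6209 that varied by more than 0.01. The genotypes did not overlap in 2 of the 15, against 1.6% of all probe sets. At an unadjusted p under 0.05 there were 5 of the 15 (Myoz1 by its second probe set, Ldb3 by the third, Csrp3, Ankrd2 and Myoz2), against 9.92% of the probe sets that varied. Taking each gene by its brightest probe set, 0 of the 10 genes passed with limma and 3 had an unadjusted p under 0.05, against 0.0275% and 5.43% of all 18193 genes.

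**Figure D2:**
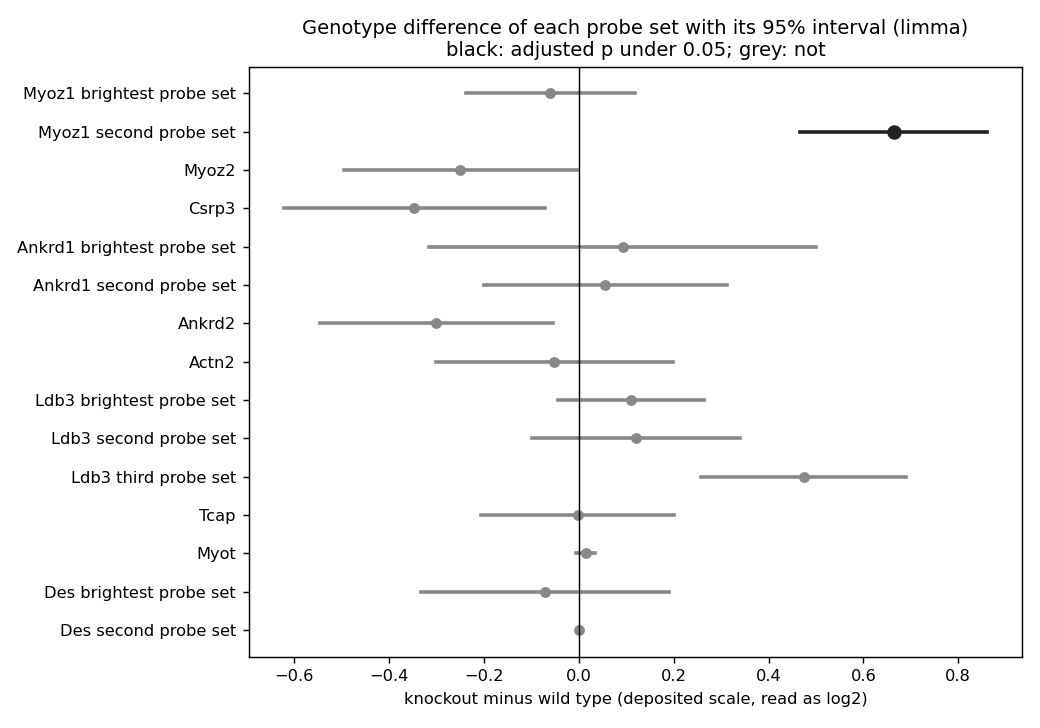
Difference of each probe set between genotypes (horizontal axis, knockout minus wild type, read as log2) with its 95% interval from limma. The second Myoz1 probe set, in black, passed the adjusted threshold at 0.66, and the grey ones did not; the interval of the third Ldb3 probe set, from 0.26 to 0.69, also lies above 0.

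Myoz1 encodes calsarcin-2, the myozenin of fast fibres, which binds alpha-actinin and calcineurin. Its dimmer probe set (1448636_at) read 8.87, 8.99, 9.09, 9.21 and 8.89 in knockouts 1 to 5, against 8.51, 8.25, 8.16, 8.40 and 8.40 in wild types 1 to 5. The lowest knockout thus lay above the highest wild type. A lack of overlap, in either direction, was seen in 3.96% of all probe sets that varied by more than 0.01. The means were 9.01 ± 0.141 in knockouts and 8.35 ± 0.140 in wild types (SD, n = 5 each), a difference of 0.66 ± 0.09 SE a ratio of 1.58 (limma adjusted p = 0.0352). With 1 array left out at a time, 9 of 10 fits lost this call, all but the one without wild type 1, with a highest adjusted p of 0.108. The difference itself ranged from 0.61 to 0.71 in those fits. Without knockout 1, 4 and 5 and wild type 3, the arrays with epidermis or lymphocyte markers, the difference was 0.64 with an adjusted limma p of 0.616. With the mean of the slow-fibre genes as a covariate it was 0.64 (limma adjusted p = 0.105).

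The brighter Myoz1 probe set (1460202_at) read 12.28, 12.46, 12.68, 12.61 and 12.56 in knockouts, against 12.64, 12.46, 12.59, 12.68 and 12.52 in wild types. Knockouts 1 and 2 lay below every wild type, and the other 3 knockouts lay within or just above the wild-type range. The difference was −0.06 ± 0.08 SE, with a 95% interval of −0.24 to 0.12 (limma adjusted p = 0.974), whose upper bound lies below the 0.66 of the other probe set.

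The difference between the 2 probe sets was tested directly, as the gap between them on each array. In Myoz1 the brighter probe set lay 3.41, 3.47, 3.59, 3.40 and 3.67 above the dimmer one in knockouts, and 4.13, 4.21, 4.43, 4.27 and 4.12 above it in wild types. The gap was narrower in every knockout than in any wild type, at 3.51 ± 0.118 in knockouts against 4.23 ± 0.128 in wild types (SD, n = 5 each). The dimmer probe set thus changed by 0.72 ± 0.08 SE more than the brighter one (limma adjusted p = 0.00726 over all 16752 such pairs of the array). This gap passed in each of the 10 fits that left out 1 array, with adjusted p between 0.014 and 0.0307. Without the 4 arrays with epidermis or lymphocyte markers it was 0.65 with an adjusted limma p of 0.229.

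Ldb3 encodes ZASP, also called Cypher, a PDZ and LIM domain protein that links alpha-actinin to signalling kinases and is made in several splice forms. The third and dimmest Ldb3 probe set (1451999_at) read 9.54, 9.68, 9.89, 9.84 and 9.55 in knockouts, against 9.26, 9.26, 9.03, 9.42 and 9.15 in wild types. All 5 knockouts lay above all 5 wild types, at means of 9.70 ± 0.162 in knockouts and 9.23 ± 0.144 in wild types (SD, n = 5 each). The difference of 0.47 ± 0.09 SE, a ratio of 1.39, did not pass over all probe sets (limma adjusted p = 0.16, unadjusted p = 0.00088), and passed when the test was limited to the probe sets that varied by more than 0.01 (adjusted p = 0.0282). The brightest Ldb3 probe set averaged 11.94 ± 0.0738 in knockouts and 11.83 ± 0.135 in wild types, and the second 11.22 ± 0.160 in knockouts and 11.10 ± 0.151 in wild types (SD, n = 5 each). Their differences were 0.11 ± 0.07 SE and 0.12 ± 0.10 SE, with 95% intervals of −0.04 to 0.26 and −0.10 to 0.34 (limma adjusted p = 0.895 and 0.941).

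In Ldb3 too the gap differed between genotypes. The brightest probe set lay 2.30, 2.29, 2.13, 2.14 and 2.35 above the third in knockouts, and 2.62, 2.64, 2.58, 2.55 and 2.65 above it in wild types. Every knockout had a narrower gap than any wild type, and the third probe set changed by 0.36 ± 0.05 SE more than the brightest (limma adjusted p = 0.0192). Against the second probe set it changed by 0.35 more (exact two-sided permutation p = 0.00794, n = 5 each, the smallest p that 252 splits can give). The gap between the brightest and the second probe set was 0.73 ± 0.0965 in knockouts and 0.74 ± 0.117 in wild types, and changed by 0.01 with an interval of −0.14 to 0.16. The call for the third probe set was lost without knockout 2 (limma adjusted p = 0.0502), wild type 2 (0.0605), wild type 3 (0.0691) or wild type 5 (0.0719), at differences between 0.35 and 0.38. Among the other fits with a covariate or with arrays left out, it was lost with the slow-fibre genes as a covariate (0.0711) and without the 4 arrays with epidermis or lymphocyte markers (0.574). The probe sets of Myoz1 and Ldb3 were not placed on transcripts or splice forms, and the cause of either gap difference was not tested.

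**Figure D3:**
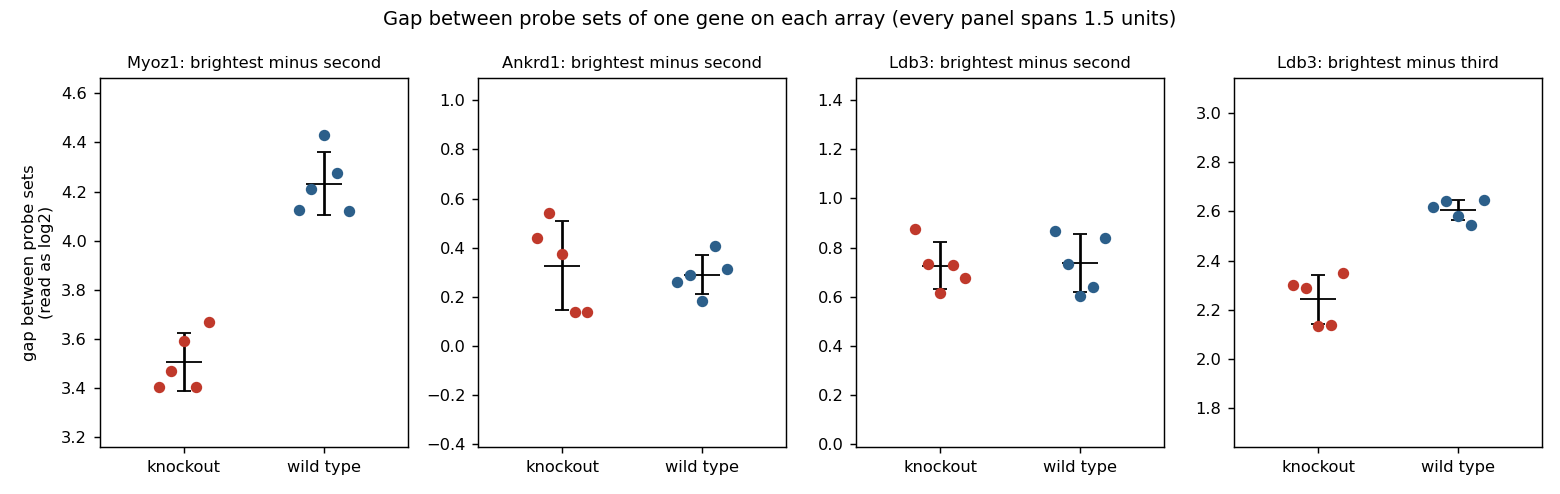
Gap between the brightest and a dimmer probe set of the same gene (vertical axis, read as log2) on each array, knockout left and wild type right, with the mean and SD of 5 arrays; every panel spans 1.5 units. The gaps of Myoz1 and of the third Ldb3 probe set do not overlap between genotypes, whereas those of Ankrd1 and of the second Ldb3 probe set do.

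Such divergence between probe sets of a gene was also counted across the array. Of the 5 pairs among these genes 2 passed, against 0.478% of the 16752 pairs of the array and 2.27% of the 1498 pairs in which both probe sets varied by more than 0.01. With the test limited to those 1498 pairs, 85 passed with limma, or 5.67%. Of these, 72 had the dimmer probe set relatively higher in knockouts and 13 relatively lower. A gap without overlap between genotypes was seen in 7.61% of those 1498 pairs. In the test over all 16752 pairs, 34 of the 1498 were called. Of these 34, 29 had the dimmer probe set relatively higher in knockouts, as in Myoz1 and Ldb3, and 5 relatively lower. Over all 1498 pairs, whatever their p, the dimmer one was relatively higher in 49.4%. As a check of RNA quality, the signal of the 3' control probe set minus that of the 5' one averaged 0.41 ± 0.088 in knockouts and 0.41 ± 0.0696 in wild types for Gapdh, and 0.62 ± 0.193 in knockouts and 0.53 ± 0.147 in wild types for Actb (SD, n = 5 each, exact two-sided permutation p = 0.992 and 0.397).

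The other structural genes of the Z-disc did not differ beyond the spread between arrays. Actn2, the alpha-actinin that slow and fast fibres share, read 10.82, 10.91, 11.04, 11.20 and 11.11 in knockouts, against 10.77, 11.32, 11.00, 11.15 and 11.10 in wild types. The ranges overlapped, and the difference was −0.05 with a 95% interval of −0.30 to 0.20 (limma adjusted p = 0.989). Tcap, the telethonin that caps the ends of titin, read 12.36, 12.32, 12.46, 12.54 and 12.37 in knockouts, against 12.42, 12.49, 12.28, 12.67 and 12.20 in wild types. Its highest and its lowest value were both wild types, and the difference was −0.0022 with an interval of −0.21 to 0.20.

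Myot, the myotilin that bundles actin at the Z-disc, read 12.42 to 12.46 in knockouts (median 12.44) and 12.41 to 12.44 in wild types (median 12.42). The difference of 0.01 had an interval of −0.0059 to 0.03 (limma adjusted p = 0.896). Although its whole range over the arrays was narrower than 1 SD of Tcap, its arrays stood in nearly the same order as those of Tcap. Within genotypes, that is after the mean of each genotype was subtracted, the Pearson correlation of Myot with Tcap over the 10 arrays was 0.96 (Spearman 0.96, and Pearson 0.93 without the 2 arrays farthest from the median of Tcap).

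Des, the intermediate filament protein desmin, read 11.54, 11.55, 11.33, 11.40 and 11.06 in knockouts by its brightest probe set, against 11.70, 11.41, 11.31, 11.29 and 11.53 in wild types. Knockout 5 was the lowest and wild type 1 the highest. The difference was −0.07 with an interval of −0.33 to 0.19 (limma adjusted p = 0.986). The dimmer Des probe set stood at 6.29 on every array.

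Myoz2 encodes calsarcin-1, the myozenin of slow and cardiac fibres. It read 10.14, 10.02, 9.72, 9.72 and 9.67 in knockouts, against 10.05, 10.30, 10.01, 10.00 and 10.16 in wild types. Knockouts 3, 4 and 5 lay below every wild type, and knockouts 1 and 2 lay among them. The means were 9.85 ± 0.211 in knockouts and 10.10 ± 0.129 in wild types (SD, n = 5 each), a difference of −0.25 ± 0.11 SE that did not pass (limma adjusted p = 0.749, unadjusted p = 0.0476).

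The 2 myozenins ran against each other from mouse to mouse. Within genotypes, the brightest Myoz1 probe set and Myoz2 had a Pearson correlation of −0.92 over the 10 arrays (Spearman −0.84, and Pearson −0.79 without the 2 arrays farthest from the median of Myoz1), the lowest of the 91 pairs of probe sets among these genes. In knockout 1 Myoz1 was at its lowest (12.28) and Myoz2 at its highest of the knockouts (10.14). The dimmer Myoz1 probe set had a weaker correlation with Myoz2, of −0.36. These correlations are descriptions over 10 arrays that share their normalization. In bulk muscle, fewer fibres of a type and less RNA per fibre cannot be told apart.

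Among the stretch-response genes, Csrp3 encodes the muscle LIM protein, which binds telethonin and alpha-actinin and is rich in slow fibres. Csrp3 read 10.55, 10.82, 10.33, 10.40 and 10.42 in knockouts, against 10.89, 10.75, 10.75, 10.69 and 11.18 in wild types. Of the 5 knockouts 4 lay below every wild type, and knockout 2 lay among them. The means were 10.50 ± 0.192 in knockouts and 10.85 ± 0.198 in wild types (SD, n = 5 each), a difference of −0.35 ± 0.12 SE that did not pass (limma adjusted p = 0.598, unadjusted p = 0.0193). The 95% interval ran from −0.62 to −0.07.

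Ankrd2, the muscle ankyrin repeat protein of slow fibres that binds titin in the I-band and is known to respond to stretch, read 10.85, 10.99, 10.67, 10.52 and 10.87 in knockouts, against 10.98, 11.28, 10.90, 11.03 and 11.22 in wild types. Again 4 of the 5 knockouts lay below every wild type, and knockout 2 alone lay among them. The means were 10.78 ± 0.185 in knockouts and 11.08 ± 0.162 in wild types (SD, n = 5 each), a difference of −0.30 ± 0.11 SE that did not pass (limma adjusted p = 0.619, unadjusted p = 0.022). Taken singly, the exact two-sided permutation p was 0.0238 for Ankrd2, 0.0317 for Csrp3 and 0.0794 for Myoz2 (n = 5 each). Slow-fibre genes, whose 8 listed members averaged 9.70 to 10.05 in knockouts and 9.80 to 10.27 in wild types, were lower in knockouts by 0.11 on average (exact two-sided permutation p = 0.349, n = 5 each). In the fit with that mean as a covariate the differences were −0.39 for Csrp3, −0.31 for Ankrd2 and −0.22 for Myoz2, none past the adjusted limma threshold.

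The promoters of Csrp3, Ankrd2 and Myoz2 are shown because these were the members with lower means in knockouts and an unadjusted p under 0.05. The RefSeq table of GRCm38.p6 promoters, which holds 250 bases before and 50 after each start, had entries for 7 of the 10 genes. It had none for Myoz1 and Tcap, and the Myot promoter is not reported here. The 5′ to 3′ sequences are given on the gene's strand. Capitals mark matches to an E-box (CANNTG, bound by the myogenic factors), to MCAT (CATTCC, bound by TEAD factors) and to the CArG and MEF2 boxes, each searched on both strands.
Csrp3, chr7:48848002-48848301, minus strand: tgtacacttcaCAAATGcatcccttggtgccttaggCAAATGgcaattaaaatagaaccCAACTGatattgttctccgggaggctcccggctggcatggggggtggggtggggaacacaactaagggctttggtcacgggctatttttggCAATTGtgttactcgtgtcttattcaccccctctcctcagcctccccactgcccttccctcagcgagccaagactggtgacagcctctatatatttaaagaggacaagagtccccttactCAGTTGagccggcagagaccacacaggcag
Ankrd2, chr19:42035777-42036076, plus strand: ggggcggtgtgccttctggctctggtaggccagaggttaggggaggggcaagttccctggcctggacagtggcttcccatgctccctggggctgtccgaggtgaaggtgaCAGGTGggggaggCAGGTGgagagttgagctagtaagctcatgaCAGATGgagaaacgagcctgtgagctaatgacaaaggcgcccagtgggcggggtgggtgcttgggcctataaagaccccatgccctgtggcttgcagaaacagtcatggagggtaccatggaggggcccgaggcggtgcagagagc
Myoz2, chr3:123034938-123035237, minus strand: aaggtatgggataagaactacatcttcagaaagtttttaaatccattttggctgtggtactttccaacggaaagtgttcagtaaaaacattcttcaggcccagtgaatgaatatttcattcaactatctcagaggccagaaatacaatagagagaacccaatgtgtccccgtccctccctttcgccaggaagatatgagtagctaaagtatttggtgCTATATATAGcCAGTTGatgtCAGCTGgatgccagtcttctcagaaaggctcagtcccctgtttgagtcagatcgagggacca

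The Csrp3 window, the upstream one of 2 in the table, held 5 E-boxes and no match to the other motifs. Ankrd2 held 3 E-boxes, 2 of them with the same letters. Myoz2 held 2 E-boxes and, 33 bases before the start, a MEF2 box. An E-box was in 72.3% of the 32851 promoters of the table and a MEF2 box in 3.19%, so an E-box is a common find in such windows. Among the other members, Ankrd1 held 2 MCAT matches, a motif in 14.7% of promoters, and Ldb3 held a CArG box, found in 1.63%, in both of its overlapping windows. A match is a run of letters, and binding was not measured.

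Ankrd1, the cardiac ankyrin repeat protein that muscle makes on injury, stretch or denervation, differed by less than its spread. Its brighter probe set read 7.17, 7.71, 7.56, 6.85 and 7.02 in knockouts, against 7.18, 7.14, 6.91, 7.46 and 7.16 in wild types. Knockouts 2 and 3 were the highest of all arrays and knockout 4 the lowest, so that the spread in knockouts (SD 0.361) was wider than in wild types (SD 0.193). The difference was 0.09 with an interval of −0.32 to 0.50 (limma adjusted p = 0.988). With 1 array left out it ran from −0.02 without knockout 2 to 0.19 without knockout 4, and with the slow-fibre genes as a covariate it was −0.03. Without the 4 arrays with epidermis or lymphocyte markers it was 0.40, and 0.26 by the dimmer probe set, neither past the limma threshold. Of the knockouts that fit kept only knockouts 2 and 3, the arrays with the highest Ankrd1 by both probe sets. The dimmer Ankrd1 probe set gave 0.06 with an interval of −0.20 to 0.31, and it followed the brighter one over the arrays within genotypes (Pearson 0.92, Spearman 0.94, and Pearson 0.88 without the 2 farthest arrays). The gap between them changed by −0.04 with an interval of −0.24 to 0.16, an interval that lies below the 0.72 of Myoz1.

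**Figure D4:**
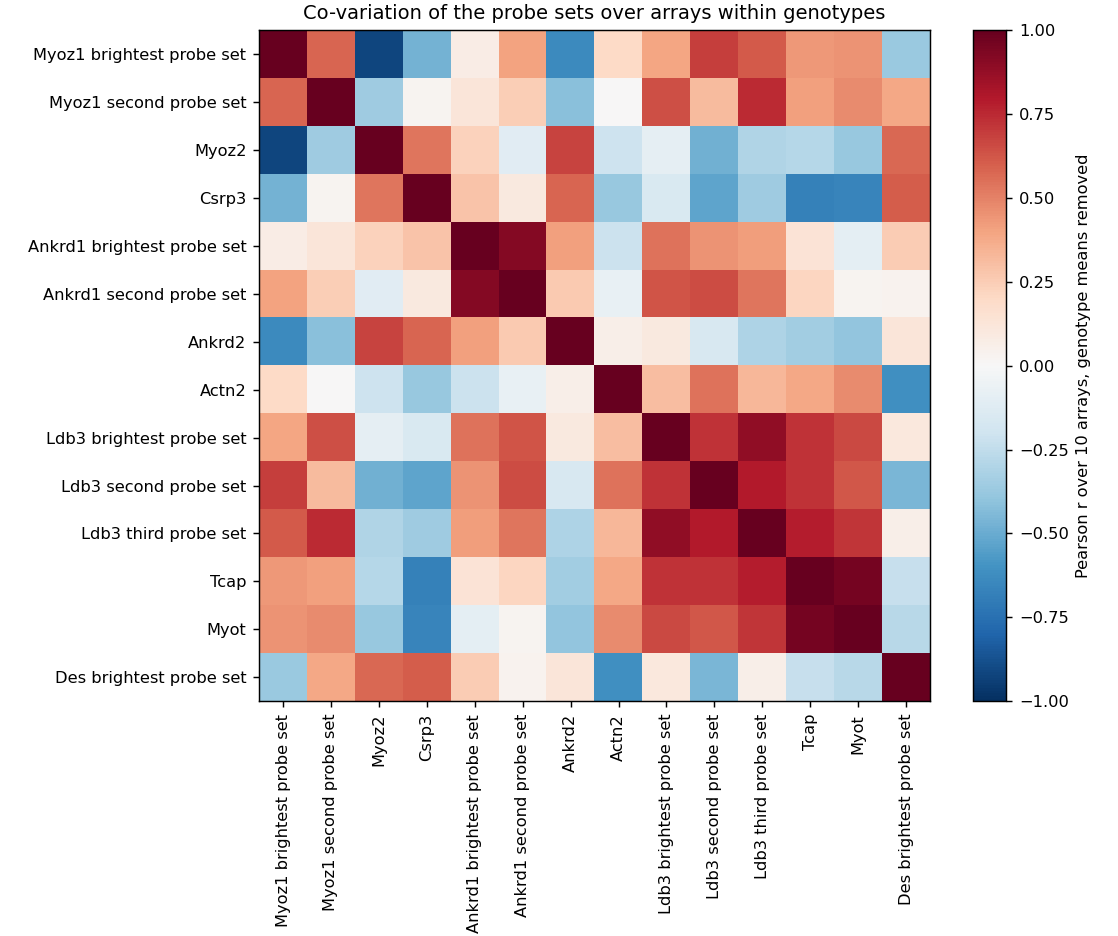
Pearson correlation between the 14 probe sets that varied by more than 0.01, over 10 arrays after the mean of each genotype was subtracted (colour scale from −1 in blue to 1 in red). The Ldb3, Tcap and Myot probe sets form a block of positive values, and Myoz1 by its brightest probe set and Myoz2 form the most negative pair, at −0.92.

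Within genotypes several of the genes ran together from mouse to mouse. The 3 Ldb3 probe sets correlated with each other at 0.72 to 0.89, with Tcap at 0.72 to 0.79 and with Myot at 0.62 to 0.71. Without the 2 arrays farthest from the median of an Ldb3 probe set of each pair, these were 0.68 to 0.88, 0.67 to 0.82 and 0.47 to 0.62. Csrp3 correlated with Ankrd2 at 0.58, with Myoz2 at 0.53 and with Des at 0.61, and Myoz2 with Ankrd2 at 0.68. Without the 2 arrays farthest from the median of Csrp3, its correlation with Ankrd2 was 0.21 and that with Des 0.71. Without the 2 arrays farthest from the median of Myoz2, Myoz2 correlated with Csrp3 at 0.92 and with Ankrd2 at 0.66. Csrp3 ran against Tcap (−0.68) and Myot (−0.66), values that shrank to −0.46 and −0.38 without the 2 arrays farthest from the median of Csrp3. Against the second Ldb3 probe set it ran at −0.52, and at −0.88 without the same 2 arrays. Against the brightest Myoz1 probe set Csrp3 ran at −0.47, and at −0.87 without the 2 arrays farthest from the median of Myoz1. The median over all 91 pairs was 0.23, and 28.6% of pairs were above 0.5.

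The genes with the pattern most like each member's were sought by the same correlation over the 10 arrays within genotypes. The search covered the named probe sets that varied, except those with provisional names such as Rik, Gm and LOC symbols. The values given are the highest of many and describe a likeness without a test. For the dimmer Myoz1 probe set the nearest genes were Dnajb5 (0.92), Tmem38a (0.92) and Prkag3 (0.90), and for the third Ldb3 probe set Hipk2 (0.95), Prkab2 (0.95) and Sema4d (0.94). For Myoz2 they were Cdh5 (0.97), Sptbn1 (0.96) and Car4 (0.96). For Csrp3 they were Omd (0.91), Ndrg1 (0.88) and Ehd2 (0.88), and for Ankrd2 Nfkbia (0.94), Abcb1a (0.93) and Myh10 (0.91). Actn2 was nearest to Huwe1 (0.93), Kifbp (0.93) and Rbm5 (0.93), and Des to Npepl1 (0.97), Atp5k (0.93) and Tceal7 (0.92). Tcap was nearest to Myot (0.96), Camk2g (0.95) and Ryr1 (0.94), and Myot to Qk (0.97), Trdn (0.96) and Camk2g (0.96). Tcap was the single member whose 3 nearest genes held another member.

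For Ankrd1 the nearest genes were Tnmd (0.86), Angptl7 (0.84) and Fibin (0.84). Tnmd, or tenomodulin, is a defining gene of tendon cells and one of the 5 markers fixed for tendon and fibroblasts, with Col1a1, Col3a1, Fmod and Thbs4. All 5 were measured and varied, and their mean ranged from 9.29 to 9.73 in knockouts and from 9.14 to 9.59 in wild types. It was highest in knockout 3 (9.73) and knockout 2 (9.73), the arrays with the highest Ankrd1. Among wild types it was highest in wild type 5 (9.59), whereas Ankrd1 was highest in wild type 4 (7.46). Tnmd, picked for its correlation with Ankrd1, is part of this mean, so some of the likeness may be built in. The part of tendon in the Ankrd1 values was not tested. For Myoz2 and Cdh5, a cadherin of endothelium, the 4 endothelial markers averaged 7.82 to 7.99 in knockouts and 7.87 to 8.02 in wild types. Of these markers 2 varied by more than the SD limit. Knockout 1 and wild type 2 were highest in their groups for the list and for Myoz2, and knockout 2 came next in knockouts for both. Wild type 5 lay above wild type 1 for Myoz2 (10.16 against 10.05) but below it for the list (7.91 against 7.94). Cdh5, picked for its correlation with Myoz2, is itself an endothelial gene, so some of the likeness may be built in. The part of endothelium in the Myoz2 values was not tested either.

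Other genes of the Z-disc and its surroundings were counted by their brightest probe sets in lists. Of 14 measured titin-linked genes 10 varied by more than 0.01, and none passed with limma. Among these 10, 9 had a higher mean in knockouts and 1 a lower one, with a median difference of 0.09, against −0.0056 over all 3410 genes whose brightest probe set varied. The mean of the 14 genes ranged from 10.40 to 10.57 in knockouts and from 10.36 to 10.53 in wild types (exact two-sided permutation p = 0.238, n = 5 each). Unadjusted p under 0.05 was reached by Mypn, the myopalladin that binds nebulin and alpha-actinin, at 10.99 ± 0.106 in knockouts and 10.79 ± 0.136 in wild types (limma adjusted p = 0.853), and by Ttn, titin itself, at 13.05 ± 0.0441 in knockouts and 12.92 ± 0.110 in wild types (SD, n = 5 each, limma adjusted p = 0.905). Ttn also had probe sets that disagreed in size: its most variable one differed by 1.03 (limma adjusted p = 0.226), against 0.13 for its brightest.

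All 16 other Z-disc genes varied, 12 with a higher and 4 with a lower mean in knockouts, at a median of 0.05, and none passed. Their mean ranged from 10.01 to 10.35 in knockouts and from 10.05 to 10.24 in wild types (exact two-sided permutation p = 0.27, n = 5 each). The smallest p-values were those of Ppp3ca, the catalytic subunit of calcineurin, which calsarcins bind, and of Palld, the actin-bundling palladin. Ppp3ca stood at 9.85 ± 0.104 in knockouts and 9.64 ± 0.0940 in wild types (SD, n = 5 each), a difference of 0.21 ± 0.06 SE (limma adjusted p = 0.685, unadjusted p = 0.00822). Palld stood at 8.49 ± 0.202 in knockouts and 8.21 ± 0.0831 in wild types, a difference of 0.28 ± 0.10 SE (limma adjusted p = 0.786).

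The genes of the desmin network, the costamere and the chaperones of the Z-disc were split. Of 13 that varied 4 had a higher and 9 a lower mean in knockouts, with a median of −0.04, and none passed. The mean of all 15 measured genes differed by −0.04 (exact two-sided permutation p = 0.317, n = 5 each). Synm, the synemin that assembles with desmin, differed by 0.21 ± 0.09 SE, and Cryab, the small heat shock protein alpha-B-crystallin that protects desmin and the Z-disc, by −0.19 ± 0.09 SE (limma adjusted p = 0.905 and 0.928). The genes of slow fibres had 1 higher and 7 lower means among 8 that varied, at a median of −0.10, with Tnni1, slow troponin I, at −0.29 ± 0.14 SE and Myl2, the slow regulatory light chain, at −0.23 ± 0.14 SE. Those of fast fibres had 5 higher means among the 5 of 10 that varied, at a median of 0.04, with Mybpc2 at 0.07 and Atp2a1 at 0.06. The mean of all 10 fast-fibre genes differed by 0.02 (exact two-sided permutation p = 0.238, n = 5 each). None of the genes in the 3 lists passed with limma, and at an unadjusted p under 0.05 there was Synm alone.

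Of the 9 genes listed for mechanical load and early response, 7 varied, 5 of them with a higher mean in knockouts, at a median of 0.17, and none passed. The mean of the 9 genes differed by 0.25 (exact two-sided permutation p = 0.159, n = 5 each). Egr1, an immediate early transcription factor, ranged from 7.63 to 10.17 in knockouts and from 7.16 to 8.09 in wild types, and Fos, a subunit of AP-1, from 8.25 to 10.75 in knockouts and from 7.61 to 8.93 in wild types. Their differences of 0.998 ± 0.49 SE and 0.99 ± 0.50 SE did not pass (limma adjusted p = 0.935 and 0.941). Without knockout 2 alone they were 0.61 for Egr1 and 0.62 for Fos.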

How the data were processed

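RNA of gastrocnemius was labelled from 100 ng of total RNA with a 3′ IVT kit and hybridised to 1 array per mouse, 5 per genotype, per the labels' protocols. The deposited values, 1 per probe set and array, are read as log2 from their range of 4.93 to 13.96 and as already normalized by the authors from their like medians, whose methods the labels do not state. The number of arrays limits the precision.

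No test included the 64 array controls. Gene names came from the platform annotation, updated through a RefSeq gene table: 34945 of 45037 probe sets had 1 gene, 932 several and 9160 none, and 34741 of the first kind matched the table. The genotype difference was fitted in R 4.3.3 with limma 3.58.1 (lmFit, then eBayes with no trend, Benjamini-Hochberg at 0.05) over all probe sets, over genes by their probe set with the highest mean, and over the gaps between each further probe set of a gene and that brightest one. Single values were compared by exact permutation of the 10 arrays. The fits were tested on simulated data with known changes. Alternatives covered scaling, moderation, weights, filters, a slow-fibre covariate, the replicate number as a block, the probe set per gene and arrays left out.

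The 10 genes and all lists were chosen with earlier results of these data known. Each member probe set was reported, those with an SD above 0.01 by array or range. From each list the rule took up to 4 genes past the threshold, or otherwise the 2 with the smallest p among those that varied. For each member it took the 3 genes with the highest correlation, provisional gene names left out. Some genes of the lists and markers are not reported here. The labels call the arrays biological replicates. Figures were drawn with Python 3.11.15 and matplotlib 3.10.9.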

Additional observations from a re-analysis of the deposited data

How the results depend on the processing

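The limits of these values are the 10 arrays, the unstated processing and the large share of probe sets that hardly varied. Of the 15 probe sets 1 passed, and 1 did so too after quantile normalization, with arrays centred on the median, with trend and robust moderation, with array weights and without probe sets under the median level. It was 2 among probe sets with an SD above 0.01, where fewer are tested, and 0 with the slow-fibre covariate. It was also 0 without the array that stood apart in a list of other-tissue markers, wild type 2 in smooth muscle markers, and 0 without the 4 arrays with epidermis or lymphocyte genes, an alternative chosen after seeing the data. The smooth muscle mean was 8.04 in wild type 2 and 7.99 to 8.02 on the other arrays. Of its 4 markers 1 varied by more than 0.01. In the fits without 1 array the count of member probe sets that passed was 0 to 1. By gene 0 of 10 passed, and the count stayed at 0 except where each gene was taken by its most variable probe set, which gave 1 (Myoz1, limma adjusted p = 0.0236). At an unadjusted p under 0.05 it was 3 by gene.

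Of the 5 gaps between probe sets 2 passed. The count was 1 with the slow-fibre covariate and without wild type 2, 0 without the 4 arrays, 1 to 2 in the fits without 1 array, and 2 in the other alternatives but the block. Same-numbered arrays correlated at −0.40 to 0.32 in their deviations, and 2 of 5 matched their own number best, so the numbers do not pair the arrays. With the replicate block the counts were 0 of 15 probe sets, 0 of 10 genes and 0 of 5 gaps, and 5 of all 45037 probe sets passed. There the limma adjusted p was 0.325 for the dimmer Myoz1 probe set, 0.125 for the Myoz1 gap and 0.0815 for the Ldb3 gap. The Myoz1 gap passed in 18 of 20 alternatives (0.65 to 0.76) and the Ldb3 gap in 12 of 20 (0.34 to 0.40), all in the same direction. The cause of the lost calls was not tested, beyond fewer arrays in the fits that left some out. Csrp3, Ankrd2 and Myoz2 were lower in knockouts in all alternatives run, and passed in no limma fit. Tcap was higher in knockouts in 9 of 20 alternatives.

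Over the whole array the count of called probe sets was 86 and ran from 0 to 143 over the alternatives, with 0 without the 4 arrays (2050 at an unadjusted p under 0.05); that of genes was 5 (0 to 61) and that of gaps 80 (0 to 262). A filter on low values made little difference to members, all of which lie above the median level, and a pseudocount did not apply to logged values.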
